A study of Mus musculus with 9 samples.

Results

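The PCTAIRE and PFTAIRE kinases are a small branch of the cyclin-dependent kinase (CDK) family, and they were followed here with their relative Cdk5 in mouse fibroblasts given the adipocyte transcription factor PPARγ. Members were all probe sets whose platform annotation carried the symbol Cdk14, Cdk15, Cdk16, Cdk17, Cdk18 or Cdk5. The array held 14 such probe sets of 45101, which covered 5 of the 6 genes and 5 of 18193 genes in all. Cdk15 had 0 probe sets under that rule and was not analysed here. Cdk18 had 1 probe set, Cdk17 had 2, Cdk14 and Cdk5 had 3 each, and Cdk16 had 5. The family was chosen on the high value of Cdk18 with the full-length receptor over empty vector, one of the larger increases there, so the kinases' values in that comparison are given as a description, with no test.

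All 9 arrays came from NIH-CAR cells at passage 12, a single clone of NIH 3T3 fibroblasts that stably expresses a shortened coxsackievirus and adenovirus receptor, CARΔ1, through which adenoviral vectors enter. AdHA-PPARgCDE cells received an adenovirus encoding HA-tagged PPARγ2 that lacks its A/B-domain, the N-terminal activation region, and then 1 µM rosiglitazone, an agonist of PPARγ (the A/B-deleted receptor, 3 arrays). AdHA-PPARg2 cells received an adenovirus for the complete HA-tagged PPARγ2 and the same dose of rosiglitazone (the full-length receptor, 3 arrays). AdEmpty cells received an adenovirus without an insert and DMSO vehicle (empty vector, 3 arrays). Receptor and agonist therefore changed together against empty vector, and only the pair of receptors was compared at the same drug dose. Virus was on the cells for 2 h in all groups, and the labels do not give the time from virus to harvest. The RNA came from 3 separate experiments, and equal replicate numbers may mark the same one, but the labels do not say so.

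The family takes its names from a stretch of amino acids, PCTAIRE or PFTAIRE, in the helix that contacts the cyclin. Cdk14 and Cdk16 are switched on at membranes by cyclin Y, and Cdk14 with cyclin Y phosphorylates the Wnt co-receptor LRP6. Cdk5 is not driven by a classical cyclin but by the activators encoded by Cdk5r1 and Cdk5r2. It is best known from neurons, and in fat tissue it phosphorylates PPARγ, a step that rosiglitazone blocks. Cdk18 is among the less studied members and has been linked, in human cells, to the response to replication stress.

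Promoter sequences are shown for Cdk18 and Cdk14, the kinases whose transcripts differed most from empty vector, as the 250 bases before a listed start site of each gene in build GRCm38.p6. Promoter entries were matched by symbol for 4 of the 6 genes. The RefSeq span of Cdk18 ends at 132139698, inside its window, so the start site used for it is not the outermost. Both genes lie on the minus strand, and the sequences are written 5′ to 3′ in the direction of transcription, Cdk18 from chr1:132139686-132139935 and Cdk14 from chr5:5380252-5380501. Capitals mark every match, on either strand, to AGGTCA (the unit of nuclear receptor sites), its direct repeat with 1 base between the copies (bound by PPAR with its partner RXR), a looser repeat in which the fourth base of each copy and the first base of the leading copy are free, GGGCGG (GC box), CACGTG (E-box), TATAAA and CCAAT.
Cdk18: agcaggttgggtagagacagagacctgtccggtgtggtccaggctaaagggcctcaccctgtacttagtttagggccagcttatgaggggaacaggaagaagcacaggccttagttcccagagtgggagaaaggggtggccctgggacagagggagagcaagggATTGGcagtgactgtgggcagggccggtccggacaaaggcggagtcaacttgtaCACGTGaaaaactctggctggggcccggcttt
Cdk14: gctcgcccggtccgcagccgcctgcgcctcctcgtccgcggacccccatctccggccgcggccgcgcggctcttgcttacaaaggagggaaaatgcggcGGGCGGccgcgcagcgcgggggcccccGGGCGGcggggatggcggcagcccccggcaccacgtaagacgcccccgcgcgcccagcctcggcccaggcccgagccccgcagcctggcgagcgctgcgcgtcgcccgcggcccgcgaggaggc
The Cdk18 window held 1 E-box, present in 6.02% of 32851 promoter windows, and 1 CCAAT box, present in 33.9%. The Cdk14 window held 2 GC boxes, present in 32.7%, and was 81.2% G or C, higher than 99.1% of windows, against 58.4% for Cdk18. Neither window held TATAAA, which 12.4% of windows contain, AGGTCA, which 14.02% contain, its direct repeat, which 0.033% contain, or the looser repeat, which 0.694% contain. No matches overlapped in these windows. These are matches of letters in a short window and say nothing of sites elsewhere.

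Levels are RMA values on the log2 scale, as the authors deposited them. Differences are on the same scale, with a standard error (SE) from limma, and a gene was called when its p, after Benjamini-Hochberg adjustment across 18193 genes, fell under 0.05. Each gene was represented by its brightest probe set. Array medians ran from 6.68 to 6.90, and a probe set near or below them may carry little specific signal. The receptor gene Pparg averaged 11.34 ± 0.63 with the A/B-deleted receptor and 11.25 ± 0.84 with the full-length receptor, against 7.06 ± 0.10 with empty vector (SD, n = 3 each). All 10 fibroblast markers lay above the array medians on every array of all groups. Of 6 measured adipocyte markers Fabp4 alone was called, 6.54 higher (SE 0.47) with the A/B-deleted receptor than with empty vector (adjusted p = 0.000911), while Adipoq, Lep and Cd36 averaged 5.95 or less in every group. The summed level of these 6 markers ran from 11.28 to 13.22 with the A/B-deleted receptor and from 13.21 to 13.68 with the full-length receptor, against 8.51 to 9.12 with empty vector. That sum mostly follows Fabp4. The other measured markers differed by -0.09 (Retn) to 0.04 (Cd36) for the A/B-deleted receptor against empty vector, and the median of the list was 0.01. The part of the higher marker sum in the kinase results was not tested. Markers of neurons, leukocytes, epithelium and endothelium held 0 genes called by limma in any comparison (0 at an unadjusted p under 0.05). In this fit without a replicate block, limma called at most 0.654% of all genes in a comparison, and at most 6.2% passed unadjusted. The 18S ribosomal control probe sets read 7.59 to 8.67 on the arrays numbered 3 and 10.51 to 12.44 on the other 6. For the A/B-deleted receptor against empty vector, Cdk18, Cdk14 and the counts of called genes are therefore also given without the arrays numbered 3. Their part in the results was not tested beyond that. The labels do not tie arrays to experiments, so a p-value here speaks only of the scatter among arrays. In bulk RNA, a change in the share of responding cells and a change per cell cannot be told apart.

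Cdk18 was the family member with the large response. On arrays 1, 2 and 3 it read 10.07, 10.50 and 9.75 on the A/B-deleted arrays, 10.54, 10.87 and 10.53 on the full-length arrays and 8.17, 8.16 and 8.08 on the empty-vector arrays. All 6 receptor arrays lay above all 3 empty-vector arrays, each full-length array lay above each A/B-deleted array, and array 3 was the lowest of its group in each. The means were 10.11 ± 0.38 with the A/B-deleted receptor, 10.65 ± 0.19 with the full-length receptor and 8.14 ± 0.05 with empty vector (SD, n = 3 each). The full-length receptor stood 2.51 (SE 0.18) above empty vector, a ratio of 5.70 after the antilog. That is the value that drew attention to the gene.

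With the A/B-deleted receptor Cdk18 rose by 1.97 over empty vector (SE 0.18, 95% interval 1.56 to 2.38, limma adjusted p = 0.00217), a ratio of 3.92. It was higher in 3 of 3 pairs of equal number, by 1.90, 2.34 and 1.67. The increase ranked 15 from the highest among 18193 genes. Cdk18 was the 1 kinase of 5 called, where 0.159% of all genes were called higher, and its groups did not overlap, as for 3.86% of genes in that direction. The empty-vector arrays are the same ones against which the full-length receptor was set, so this is not a wholly separate look at the gene. With the replicate number as a block the adjusted p was 0.00395, and without the arrays numbered 3 the difference was 2.12 (adjusted p = 0.0122).

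**Figure D1:**
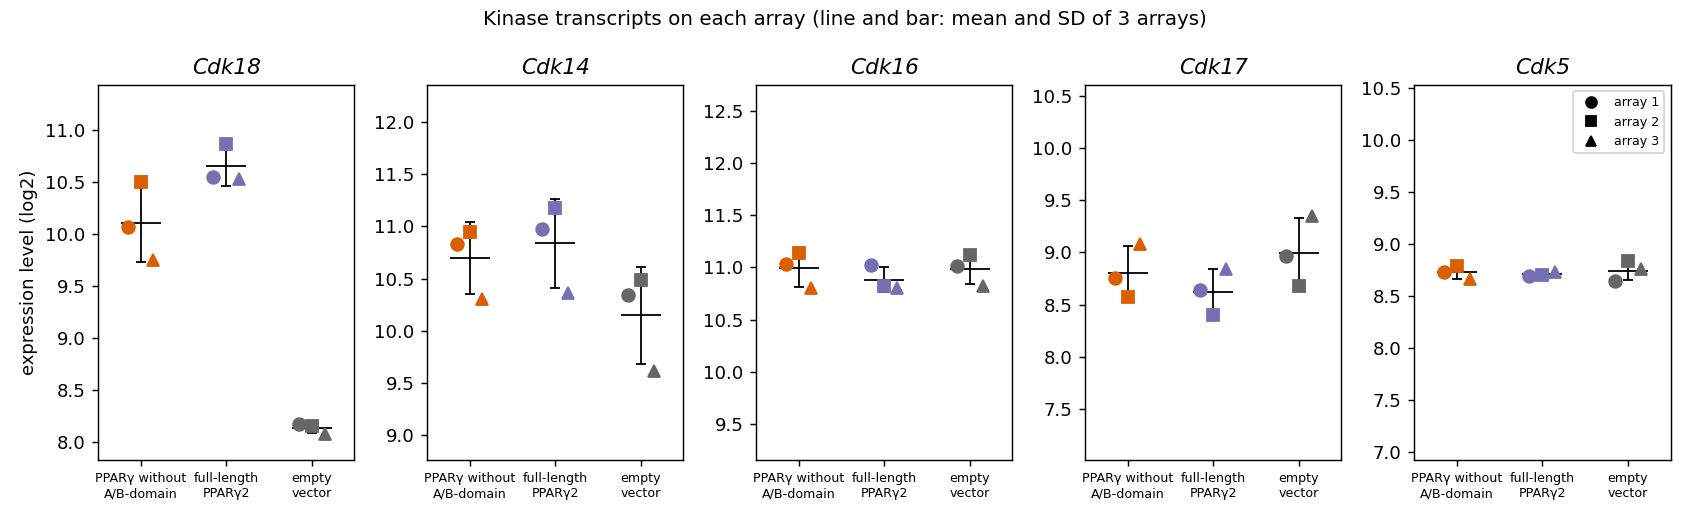
Expression level (log2) of the brightest probe set of each kinase on each array, with symbols for the array number and a line and bar for the mean and SD of 3 arrays; every panel spans the same number of log2 units. Cdk18 lies between 9.75 and 10.87 on the 6 receptor arrays and between 8.08 and 8.17 on the empty-vector arrays, while in the other 4 kinases the groups overlap.

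Between the receptors Cdk18 was lower without the A/B-domain in value, by -0.54 (SE 0.18, 95% interval -0.95 to -0.13), and was not called (limma adjusted p = 1.00, or 0.786 with the replicate block). The 3 pairs of equal number differed by -0.48, -0.37 and -0.78. The groups did not overlap, as for 3.14% of genes in that direction. The full-length arrays took part in the choice of the gene, so its high values there are not independent of this difference. In the whole table limma called 0 genes in this comparison, with or without the block, against 277 genes at an unadjusted p under 0.05 (786 with the block).

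The receptor's own transcript and Cdk18 can be set side by side on the same arrays. Pparg read 10.74, 12.01 and 11.26 with the A/B-deleted receptor and 10.70, 12.22 and 10.84 with the full-length receptor. Array 2 was the highest for both transcripts in both groups. Array 3 had more Pparg than array 1 in both groups. Cdk18 on array 3 was lower than on array 1 with the A/B-deleted receptor (9.75 against 10.07). With the full-length receptor it was nearly equal (10.53 against 10.54). The single Pparg probe set does not separate the transgene from the cell's own gene.

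Cdk14, the PFTAIRE kinase of Wnt signalling, was the other member above empty vector. Its brightest probe set, 1419249_at, read 10.83, 10.95 and 10.30 on the A/B-deleted arrays, 10.97, 11.18 and 10.36 on the full-length arrays and 10.34, 10.48 and 9.61 on the empty-vector arrays. Array 3 was the lowest in each group, so the groups overlapped, while every receptor array lay above the empty-vector array of its number. The A/B-deleted receptor exceeded empty vector by 0.55 (SE 0.29), which was not called (limma adjusted p = 1.00). With the replicate number as a block the SE was 0.08 and Cdk14 was called higher (limma adjusted p = 0.0389). The pair differences were 0.49, 0.46 and 0.69. Equal numbers of the A/B-deleted and empty-vector arrays passed the rule for pairs, a correlation of deviations from group means in the same data. That rule cannot show that equal numbers mark the same experiment. The block also takes in the full-length arrays, whose numbers did not pass the rule against empty vector. With the block 2 of the 5 kinases were called higher, Cdk18 and Cdk14, beside 0.66% of all genes.

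That call of Cdk14 was not firm. When all 34945 probe sets were fitted in place of 1 per gene, the blocked adjusted p was 0.0606, and 1 of the 14 probe sets of the family, that of Cdk18, was called with or without the block, beside 0.558% of all probe sets with it and 0.114% without. Without the arrays numbered 3 the blocked value was 0.48 (adjusted p = 0.153), in a fit added after seeing the data. The other Cdk14 probe sets had the same sign. Probe set 1419250_a_at was 0.46 higher (SE 0.30) and 1453956_a_at 0.50 higher (SE 0.27) with the A/B-deleted receptor than with empty vector, each in 3 of 3 pairs, and neither was called with the block (adjusted p = 0.143 and 0.436). The 3 probe sets carry the same gene symbol and were read on the same arrays, so they are not separate evidence. A like direction in all 3 pairs was seen in 14.8% of genes. Against empty vector the full-length receptor stood 0.69 (SE 0.29) above for 1419249_at, 0.42 (SE 0.30) for 1419250_a_at and 0.22 (SE 0.27) for 1453956_a_at. Between the receptors Cdk14 differed by -0.14, with a 95% interval from -0.79 to 0.50.

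Cdk17, a PCTAIRE kinase, ran the other way in value. Probe set 1434082_at read 8.76, 8.57 and 9.08 on the A/B-deleted arrays, 8.64, 8.40 and 8.84 on the full-length arrays and 8.97, 8.68 and 9.35 on the empty-vector arrays. Here array 3 was the highest in each group, the reverse of Cdk14, and every receptor array lay below the empty-vector array of its number. The A/B-deleted receptor differed from empty vector by -0.19 (SE 0.20, 95% interval -0.65 to 0.26) and the full-length receptor by -0.37 (SE 0.20). The first of these was not called without the block (limma adjusted p = 1.00) or with it (adjusted p = 0.474), and a like direction in all 3 pairs was seen in 19% of genes. The second probe set of Cdk17, 1446272_at, lay below the array median on all 9 arrays, and its pairs did not share a direction (0.33, 0.02 and -0.50). Over the 9 arrays the correlation of Cdk17 with Cdk14 was -0.94, a description in which the array number takes part.

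**Figure D2:**
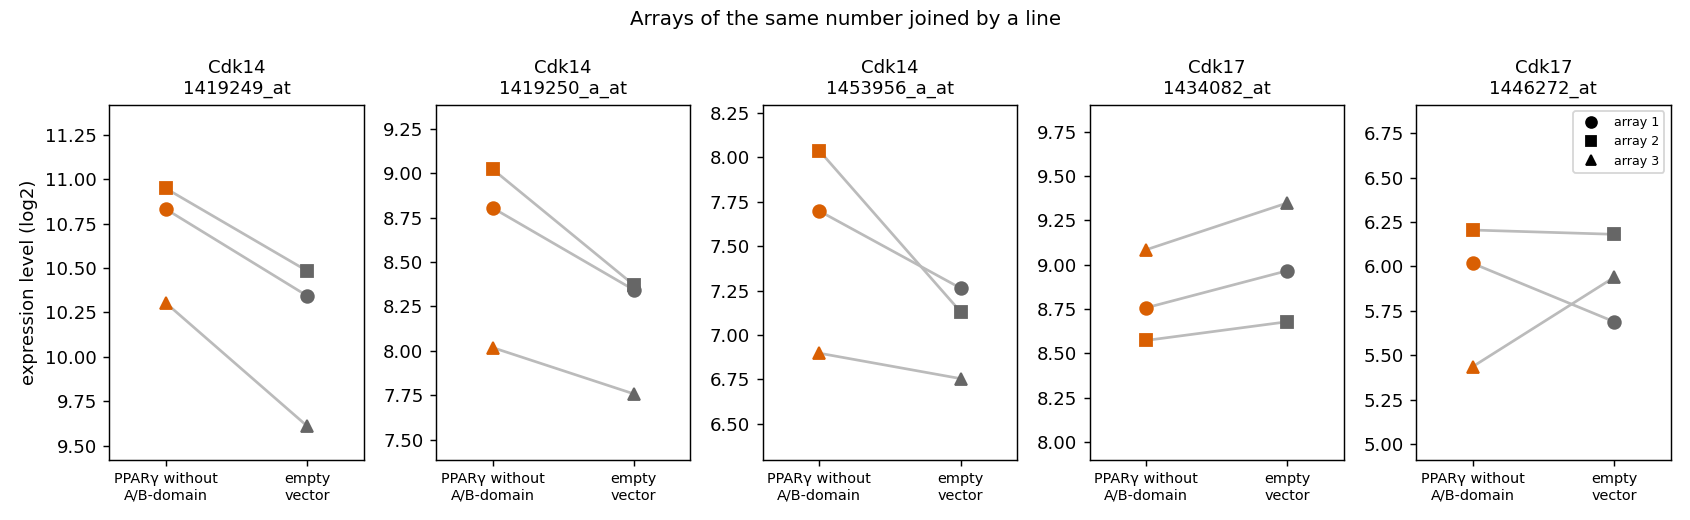
Expression level (log2) of the 3 probe sets of Cdk14 and the 2 of Cdk17 with the A/B-deleted receptor (left in each panel) and empty vector (right); lines join arrays of the same number. All 9 lines of Cdk14 are higher with the receptor, all 3 of Cdk17 probe set 1434082_at are lower, and those of 1446272_at, a dim probe set, are mixed.

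Cdk16, the PCTAIRE kinase that cyclin Y activates, showed no difference that the arrays could resolve. Its brightest probe set, 1438625_s_at, read 11.03, 11.14 and 10.80 on the A/B-deleted arrays, 11.02, 10.82 and 10.80 on the full-length arrays and 11.01, 11.12 and 10.83 on the empty-vector arrays. The groups overlapped fully. The difference was 0.01 for the A/B-deleted receptor against empty vector (SE 0.13, 95% interval -0.29 to 0.30) and -0.10 (SE 0.13) for the full-length receptor. Over all 5 probe sets the first of these ran from -0.05 to 0.09. Array 3 was the highest of each group for probe sets 1415956_a_at and 1460169_a_at and the lowest for 1438625_s_at and 1443296_at, so probe sets of this gene disagreed on the arrays with low 18S signal. Probe sets 1443296_at and 1438314_at passed the array median on 1 array each.

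Cdk5, the kinase that can phosphorylate PPARγ itself, spanned the narrowest range of the 5 brightest probe sets, 8.65 to 8.83 over the 9 arrays. Probe set 1450674_at read 8.73, 8.79 and 8.66 on the A/B-deleted arrays, 8.69, 8.70 and 8.74 on the full-length arrays and 8.65, 8.83 and 8.76 on the empty-vector arrays. All 9 arrays lay within the span of the empty-vector arrays. The A/B-deleted receptor differed from empty vector by -0.02, with a 95% interval from -0.24 to 0.21, and the full-length receptor by -0.04 (SE 0.10). The A/B-deleted minus full-length value was 0.02 (95% interval -0.21 to 0.24). The other probe sets gave -0.03 (1422590_at) and -0.15 (1460022_at, below the array median on 8 arrays) for the A/B-deleted receptor against empty vector.

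**Figure D3:**
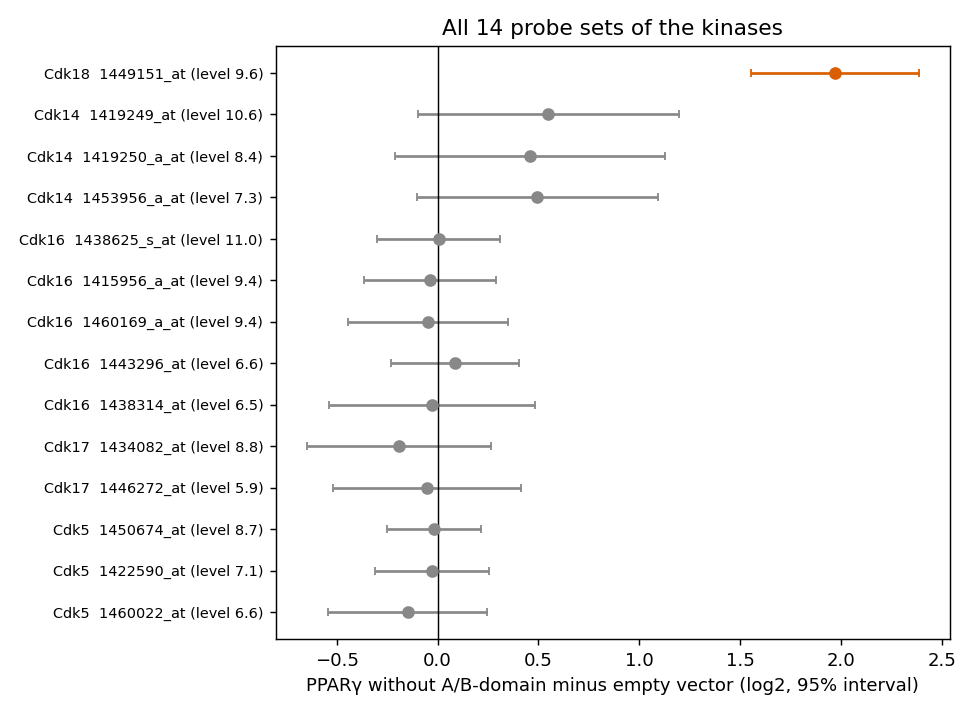
Difference between the A/B-deleted receptor and empty vector (log2) for each of the 14 probe sets, with its 95% interval from limma without the block; numbers in brackets are the mean level over 9 arrays. The interval of Cdk18, 1.55 to 2.39 in the fit of all probe sets, lies to the right of every other, and the intervals of the other 13 include 0.

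Cdk18 was then set against each measured relative within arrays. The difference of Cdk18 minus the relative was higher with the A/B-deleted receptor than with empty vector by 1.42 for Cdk14, 1.96 for Cdk16, 2.16 for Cdk17 and 1.99 for Cdk5. In all 4 contrasts the 3 A/B-deleted arrays lay above the 3 empty-vector arrays. The 4 contrasts share the Cdk18 values, whose groups did not overlap on their own, so they are not separate evidence. The empty-vector arrays also took part in the choice of the gene. The exact two-sided permutation test gave p = 0.1 for each, also after adjustment over the 4 relatives, and 0.1 is the smallest p that 3 arrays against 3 allow, so these differences could not pass a threshold of 0.05.

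**Figure D4:**
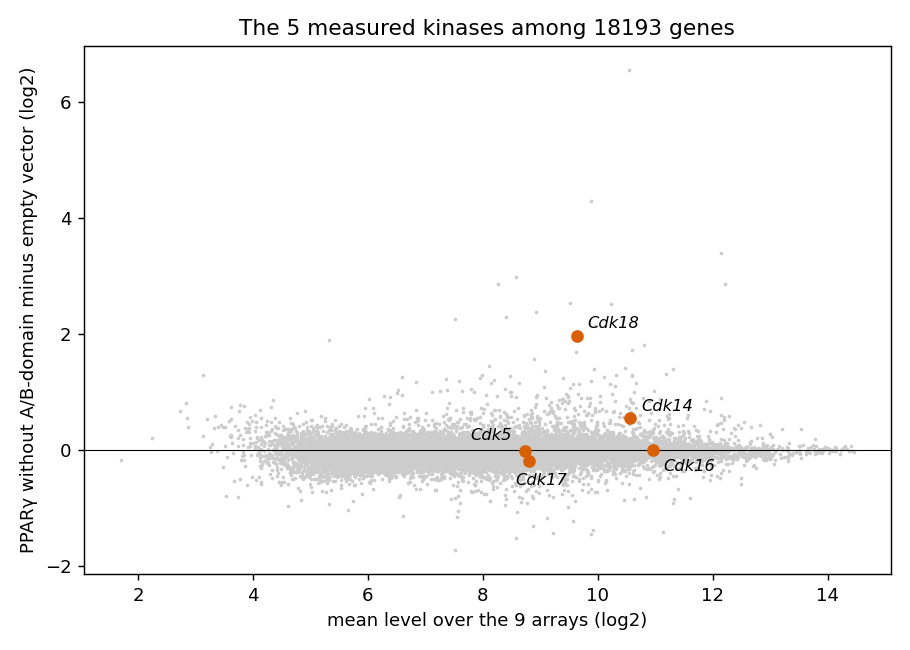
Difference between the A/B-deleted receptor and empty vector (log2) against the mean level over the 9 arrays (log2) for all 18193 genes, with the 5 measured kinases as large points. Cdk18, at 1.97, lies well above the bulk of genes of its level, Cdk14 lies at 0.55, and Cdk16, Cdk17 and Cdk5 lie between -0.19 and 0.01.

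The cyclins, activators and partners of these kinases, all 17 of 17 measured, held 0 genes called by limma in any of the 3 comparisons, with or without the block. Over all genes limma called 0.17% for the A/B-deleted and 0.654% for the full-length receptor against empty vector, or 0.912% and 3.63% with the block. Between the receptors it called 0% either way, so 0 calls among 17 genes lies near these shares. At an unadjusted p under 0.05 the list held 0 genes in each comparison without the block. With the block it held 1 for the A/B-deleted receptor and 3 for the full-length receptor against empty vector, and 1 between the receptors. There 9.84%, 14.2% and 4.32% of all genes passed. Their median difference for the A/B-deleted receptor against empty vector was -0.06, beside -0.03 over all genes, and single genes ran from -0.19 to 0.27. Cyclin Y (Ccny) differed by 0.13 (SE 0.12) and the related Ccnyl1 by -0.18 (SE 0.11), while Ywhah, a 14-3-3 protein, was at -0.19. The largest value was that of Cdk5r1, the Cdk5 activator, at 0.27 (SE 0.24). It read 8.14, 8.15 and 7.57 on the A/B-deleted arrays, 8.23, 8.11 and 7.51 on the full-length arrays and 7.92, 7.75 and 7.38 on the empty-vector arrays, lowest on array 3 in each group.

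Of 16 measured genes whose products are described as substrates or binding partners of the kinases, Tdrd7 was the one with a large difference. It encodes a tudor-domain protein described in rat brain as a partner of the PCTAIRE kinase Cdk17. Tdrd7 read 9.52, 10.19 and 9.54 on the A/B-deleted arrays, 9.81, 10.33 and 10.14 on the full-length arrays and 8.49, 8.93 and 8.61 on the empty-vector arrays, with both receptor groups above every empty-vector array. It rose by 1.42 (SE 0.21, limma adjusted p = 0.0192) with the full-length receptor. With the A/B-deleted receptor the difference was 1.08 (SE 0.21), not called without the block (adjusted p = 0.185) and higher with it (adjusted p = 0.0145). The other large values in this list, for the A/B-deleted receptor against empty vector, were -0.40 (SE 0.37) for Mapt, the microtubule protein tau, and 0.36 (SE 0.42) for Lrp6. In this list 0 genes were called for the A/B-deleted receptor and 1 for the full-length receptor, against 1 and 2 with the block, Lrp5 (0.68, adjusted p = 0.0159) being the second. Lrp5 was not called without the block (limma adjusted p = 0.381). Its means, 6.51 with the full-length receptor and 5.82 with empty vector, lay below the array medians, so it may carry little specific signal. At an unadjusted p under 0.05 there were 2 for the A/B-deleted and 4 for the full-length receptor, beside 3.79% and 6.2% of all genes. The shares of all genes called in either direction were 0.17% and 0.654%, or 0.912% and 3.63% with the block.

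Other members of the CDK machinery were read in the same way. Over all genes limma called 0.17% for the A/B-deleted and 0.654% for the full-length receptor against empty vector, or 0.912% and 3.63% with the block. Between the receptors it called 0%. At an unadjusted p under 0.05 the shares without the block were 3.79%, 6.2% and 1.52%. Counts at or near 0 in lists this short lie near these shares. Among 17 measured other CDKs and CDK-like kinases limma called 0 in any comparison with or without the block, and 0 passed an unadjusted p under 0.05 for the A/B-deleted receptor against empty vector. Their differences there ran from -0.22 for Cdk19 to 0.22 for Cdk13, with Cdkl1 at -0.19. Cdk1 and Cdk4, which drive mitosis and entry into the cycle, differed by -0.11 (SE 0.18) and -0.04 (SE 0.13). Of 18 measured cyclins 0 were called without the block, and 0 passed an unadjusted p under 0.05 in any comparison. With the block 1 cyclin was called, Ccnd1 (cyclin D1), lower with the full-length receptor (-0.51, limma adjusted p = 0.0258, or 0.872 without the block). In that comparison the block called 3.63% of all genes. It ties full-length to empty-vector arrays of equal number, which did not pass the rule for pairs. The value of Ccnd1 with the A/B-deleted receptor was -0.36 (SE 0.24), beside 0.18 for Ccng1 and 0.17 for Ccnd2. Of 7 CDK inhibitors 0 were called with or without the block, 0 passed an unadjusted p under 0.05 without it and 2 did with it for the A/B-deleted receptor, beside 9.84% of all genes. For that receptor the median was -0.22 and the largest values were -0.36 (SE 0.24) for Cdkn2d, -0.34 for Cdkn2a and -0.28 for Cdkn2c.

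Because Cdk5 acts on PPARγ, a list of adipocyte genes described as depending on that phosphorylation was also read, and 15 of 17 were measured. For the A/B-deleted receptor against empty vector 0 were called, beside 0.17% of all genes, and 1 passed an unadjusted p under 0.05, beside 3.79%. With the block, which called 0.912% of all genes, the 1 gene called was Txnip, which encodes a thioredoxin-binding protein (2.13, SE 0.84; adjusted p = 1.00 without and 0.00544 with the block). Txnip read 11.29, 11.56 and 8.91 on the A/B-deleted arrays, 11.29, 11.49 and 9.57 on the full-length arrays and 8.88, 9.47 and 7.02 on the empty-vector arrays. Array 3 was lowest in every group by more than 1 log2 unit, so the groups overlapped for the A/B-deleted receptor. Cidec, a lipid droplet protein, was the 1 gene of the list called with the full-length receptor without the block (2.51, SE 0.32, limma adjusted p = 0.00915). With the block 3 were called, and the shares of all genes were 0.654% without and 3.63% with the block. The A/B-deleted receptor gave 0.55 (SE 0.32) for Cidec against empty vector. Between the receptors Cidec differed by -1.96 (SE 0.32) and was not called (limma adjusted p = 0.871, or 0.215 with the block). Cd24a was at 0.68 (SE 0.49) with the A/B-deleted receptor and Adipoq, adiponectin, at 0.03 (SE 0.14). The median of the list was 0.05, beside -0.03 over all genes.

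The transcripts whose pattern over the 9 arrays was most like that of Cdk18 were Ermp1 (Pearson r = 0.996), Fabp4 (0.992), Tle3 (0.990), Slc18b1 (0.989) and Btg1 (0.987), followed by Fads3, Prune1, Etfdh, Retsat and Arhgap42 (0.986 to 0.982). Ermp1 stood 1.30 above empty vector with the A/B-deleted receptor and 1.69 above it with the full-length receptor. In all 10 the full-length mean exceeded the A/B-deleted mean, and that exceeded the empty-vector mean. Cdk18 has the same order, and the 10 were picked for likeness to it on these arrays, so the order largely follows from the choice. The likeness of Cdk14 was highest with Prkci (0.995), Spry1 (0.988) and Fkbp9 (0.983), that of Cdk17 with Zfp52 (0.993), Hsdl1 (0.990) and Metap1 (0.990), that of Cdk16 with Aifm1 (0.973), Swi5 (0.962) and Arhgef25 (0.952), and that of Cdk5 with 2900076A07Rik (0.873), Sdhc (0.867) and Sfxn4 (0.858). These are descriptions over 9 arrays that share groups and array numbers.

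The genes next to Cdk18 were taken from the RefSeq table of GRCm38.p6. The 3 protein-coding genes on one side, Slc45a3, Elk4 and Mfsd4a, differed from empty vector by -0.05 (SE 0.14), -0.10 (SE 0.15) and 0.17 (SE 0.23) with the A/B-deleted receptor. On the other side Lemd1, Klhdc8a and Nuak2 differed by -0.20 (SE 0.36), -0.19 (SE 0.39) and -0.44 (SE 0.16). None of these 6 was called for the A/B-deleted receptor (limma adjusted p = 1.00 for each, and 0.142 or more with the block). With the full-length receptor Nuak2 differed from empty vector by -0.72 (SE 0.16), called with the block (adjusted p = 0.0149) and not without it (adjusted p = 0.121). The block called 3.63% of all genes in that comparison, and equal numbers of these groups did not pass the rule for pairs. Nuak2, a stress-responsive kinase of the AMPK family, averaged 8.20 ± 0.21 with the A/B-deleted receptor, 7.93 ± 0.17 with the full-length receptor and 8.65 ± 0.22 with empty vector.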

How the data were processed

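Total RNA of NIH-CAR cells was hybridised to 9 arrays. The values are log2 expression, 1 per probe set and array, as deposited; RMA, affy and R 2.5.0 are named in the submitters' processing notes. The base was read from the values: at least 99.858% of antilogs on each array fell on multiples of 0.01. Platform annotation gave 1 symbol to 34945 of 45101 probe sets, several to 932 and none to 9160, and 64 controls were left out. The probe set with the highest mean stood for its gene.

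limma 3.58.1 (R 4.3.3) fitted 3 group means over 9 arrays without a block. A fit of all probe sets, a block for replicate number, other scalings and leaving out arrays were alternatives. Named genes were all family probe sets, list genes that were called or among the 3 largest differences, the genes most like each kinase, and the neighbours of Cdk18; Ccny, Cdk1, Cdk4, Lrp5, Adipoq, Lep and Cd36 were added after their values were seen. The members and lists were chosen with earlier results of these data known. Equal numbers were taken as pairs where deviations from group means correlated above 0.1 in every pair: A/B-deleted with empty vector (0.521 at the lowest), A/B-deleted with full-length (0.297), and not full-length with empty vector (-0.121 for number 1). The block was fitted over all 9 arrays, so it also ties full-length to empty-vector arrays of equal number. The permutation tests were planned for 5 relatives, of which 4 had a probe set. Array number limits the precision (median SE 0.158). Scripts were tested on simulated data. Python 3.11.15, pandas 2.3.3, numpy 2.4.6 and matplotlib 3.10.9 were used.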

Additional observations from a re-analysis of the deposited data

How the results depend on the processing

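Cdk18 stayed higher with the A/B-deleted receptor than with empty vector, and called, under every alternative run: 1.77 to 2.15, adjusted p up to 0.0168 when 1 array was left out and 0.0187 in a fit added after seeing the data, with the block on arrays 1 and 2 alone. Against the full-length receptor it stayed lower in value and uncalled (-0.74 to -0.36). For the A/B-deleted receptor the replicate block changed 1 call of the kinases, that of Cdk14 (adjusted p = 0.0389). The values of Cdk16 and Cdk5, and that of Cdk14 between the receptors, changed sign under some alternatives and were called under none. Counts over all genes moved more. Full-length receptor against empty vector gave 91 higher and 28 lower, with the block 344 and 317, with only the 6 compared arrays 53 and 14, and with genes above the median level 53 lower. Leaving out 1 array gave 44 to 88 higher, with 53 and 44 without full-length replicates 1 and 2 and 49 and 48 without empty-vector replicates 1 and 2, and 13 to 26 lower, with 18 and 13 without full-length replicates 1 and 2 and 14 without empty-vector replicate 2. A/B-deleted receptor against empty vector gave 29 higher and 2 lower, with the block 120 and 46, and without the arrays numbered 3, 49 and 6. Its lower count was 1 after averaging probe sets per gene, with equal array medians or with quantile normalization, 7 with genes above the median level and 0 with only the 6 compared arrays. Leaving out 1 array gave 17 to 30 higher, with 17 without empty-vector or A/B-deleted replicate 2 and 19 without replicate 1 of either, and 0 to 4 lower, the 4 without full-length replicate 3. Between the receptors 0 were called, or 0 to 1 lower when 1 array was left out, the 1 without full-length replicate 3. The causes were not tested. No detection calls were given, so dim probe sets limit Cdk16, Cdk17 and Cdk5.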
